A study of Mus musculus with 38 samples.

Results

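Myeloma cells were compared with the cells of the niche they had grown in. The comparison took 10 RNA-Seq libraries of myeloma cells, 5 from the bone lining and 5 from the central bone marrow, and 14 libraries of niche cells from the bone lining of myeloma-bearing mice, which were 5 of endothelial cells, 4 of osteoprogenitors and 5 of stromal progenitors. These 24 of the 38 libraries in the series were chosen by their labels and not by any measured value. C57Bl/KaLwRij mice, aged 8 to 10 weeks, received 1000000 5TGM1-GFP cells intravenously, and the experiment was ended on day 23. A further 14 niche libraries came from healthy mice of the same strain given PBS, and serve below only as a second reference. Each library was made from 100 sorted cells. Myeloma cells were sorted as GFP+ and niche cells as CD45- Ter119-, then as CD31+ endothelial cells, CD31- Sca1+ stromal progenitors and CD31- ALCAM+ Sca1- osteoprogenitors. Libraries carry the letters D, E, G, I and J, with no osteoprogenitor library E.

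Multiple myeloma is a cancer of plasma cells, the antibody-secreting end stage of the B cell lineage, and it grows within the bone marrow. The marrow stroma supplies chemokines, adhesion molecules and cytokines to which plasma cells respond, while myeloma cells are known to shift bone towards resorption. 5TGM1 is a transplantable line of the 5T mouse myelomas and GFP is the green fluorescent protein used to sort it, so the 10 myeloma libraries all hold progeny of the same injected line. The niche libraries hold 3 kinds of cell that each express their own genes, and a gene confined to 1 of them has a wide spread across the 14. The comparison was therefore repeated against each niche cell type alone. Bone lining cells, myeloma cells included, were released from bone fragments by collagenase at body temperature, and no such digestion is described for central marrow cells.

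Reads on genes ranged from 9735031 to 17972882 in the myeloma libraries and from 11991647 to 34883291 in the niche libraries, and 10106 to 11280 and 8738 to 11125 genes had at least 1 read. Scaling factors of the libraries were inferred here from the authors' RPKM and the reads recovered on genes. They did not overlap between the groups, at 1.31 to 1.596 in myeloma and 0.627 to 1.19 in niche libraries. The centring of the values thus bears on every small difference between the groups. Stromal progenitor library E carried transcripts of leukocytes. The summed level of the neutrophil markers was 8139 RPKM there, against 0 to 122 RPKM in the other 13 niche libraries and 0 to 46.8 RPKM in the myeloma libraries. Bone lining myeloma library J carried 297 RPKM of extracellular matrix transcripts, summed over 73 genes, against 64.4 to 96.5 RPKM in the other 9 myeloma libraries. Counts below were repeated without stromal progenitor library E, an alternative chosen after the data were seen. In libraries of pooled cells, fewer cells of a type and less RNA per cell cannot be told apart.

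RPKM scale a gene's reads by its length and by the size of the library, so that levels can be compared between genes. Differences were tested by limma on log2(RPKM + 1), on which scale all log2 fold changes below are myeloma minus niche and which understates the change of low genes. A gene was called when its Benjamini-Hochberg adjusted p value was below 0.1 and its absolute log2 fold change was above 1, and "higher" and "lower" are used of called genes. Levels are given as the lowest and the highest library with the median. P values measure the spread between these libraries, and it is not stated whether libraries with the same letter come from the same mouse.

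Of 11836 genes tested, 5747 (48.6%) were called, 3122 (26.4%) higher and 2625 (22.2%) lower in myeloma cells. Without adjustment 6342 p values were below 0.05. Calls were repeated under 23 alternatives of filter, scaling, test, threshold and libraries, and a gene given below with a log2 fold change over all niche cells is marked where some of them did not call it, or called one that the test here did not. With bone lining or central marrow myeloma cells only, or with their mean for each letter, at most 5 myeloma values remain. The alternative with voom weights did not call 19 of the named genes, Igj, Sparc and other very abundant genes among them, with adjusted p values up to 0.998. Its trend of spread against level ran to -0.15 at the highest counts and weights reached 8.85e+14 against a median of 0.117. On the same recovered reads without such weights (limma with a trend on log2 CPM, chosen after seeing the data) 17 of the 19 were called, all but Bmpr1a and Sec24d. Of the 19, 7 had a weight above 1000, of 9 named genes with such a weight, and the cause of the lost calls was not tested. The median log2 fold change of all genes was 0.22. With scaling to total reads alone this median was 0.70 and the share of calls that were higher in myeloma cells was 68.6%, against 54.3% with the authors' scaling, so each list below is read beside the median of all genes. Every myeloma library lay above every niche library for 444 genes (3.75%) and below every niche library for 326 (2.75%). Against endothelial cells alone, 5327 of 10129 genes (52.6%) were called, 33.4% higher and 19.2% lower. Against osteoprogenitors alone these were 5143 of 10227 (50.3%), with 30.0% higher and 20.3% lower. Against stromal progenitors alone they were 5338 of 10370 (51.5%), with 30.8% higher and 20.6% lower. The 3 comparisons share the same 10 myeloma libraries, so their values stand side by side and their likeness is no result.

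The labels were first checked on the markers of each population. Igj (chr5:88519809-88527897, GRCm38), which encodes the joining chain of secreted IgA and IgM, measured 2843 to 9357 RPKM (median 5905) in myeloma cells and 0 to 10.4 RPKM (median 2.08) in niche cells, the largest rise of any gene tested (log2 fold change 10.92, SE 0.41, adjusted p = 2.17e-18, not called with voom). The mean was 2025-fold higher in myeloma cells. Cd48 (chr1:171681245-171705258), a surface glycoprotein of leukocytes, measured 189 to 461 RPKM (median 313) against 0 to 0.807 RPKM, median 0.119 (log2 fold change 8.03, adjusted p = 5.31e-19). Slamf7 (chr1:171632403-171653037), a receptor of plasma and NK cells whose human form is the target of elotuzumab, measured 24.8 to 69.0 RPKM (median 41.2) against 0 to 0.149 RPKM, median 0.0287 (log2 fold change 5.36, adjusted p = 1.69e-15). All 3 separated the groups without overlap, in every bone lining and central marrow library. Ptprc (chr1:138062859-138175756), which encodes CD45, measured 40.0 to 93.5 RPKM (median 45.4) in myeloma cells. In niche cells, sorted as CD45-, it was at or below 0.0975 RPKM in 13 libraries and at 4.89 RPKM in stromal progenitor library E, and the gate fixed this difference.

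The niche populations carried their own markers. Cdh5, which encodes VE-cadherin, measured 369, 135, 231, 291 and 308 RPKM in endothelial libraries D, E, G, I and J, and at most 2.39 RPKM in any other library of the comparison. Sp7, the osteoblast transcription factor osterix, measured 25.7, 11.2, 17.2 and 11.7 RPKM in osteoprogenitors D, G, I and J and was at 0 in all 10 myeloma libraries, at least 167-fold lower when 3 reads per library are taken as the limit of a count of 0. Pdgfra, a receptor of mesenchymal progenitors, measured 37.9, 57.9, 64.6, 98.1 and 50.03 RPKM in stromal progenitors D, E, G, I and J and 37.8, 32.3, 41.1 and 32.0 RPKM in osteoprogenitors, but at most 0.0316 RPKM in myeloma cells. Pecam1, which encodes the CD31 of the endothelial gate, was not absent from the tumour, with 2.77 to 23.2 RPKM (median 10.7) in myeloma cells and 133 to 354 RPKM in endothelial cells, and was above the 0.0380 to 0.247 RPKM of osteoprogenitors in every myeloma library.

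**Figure D1:**
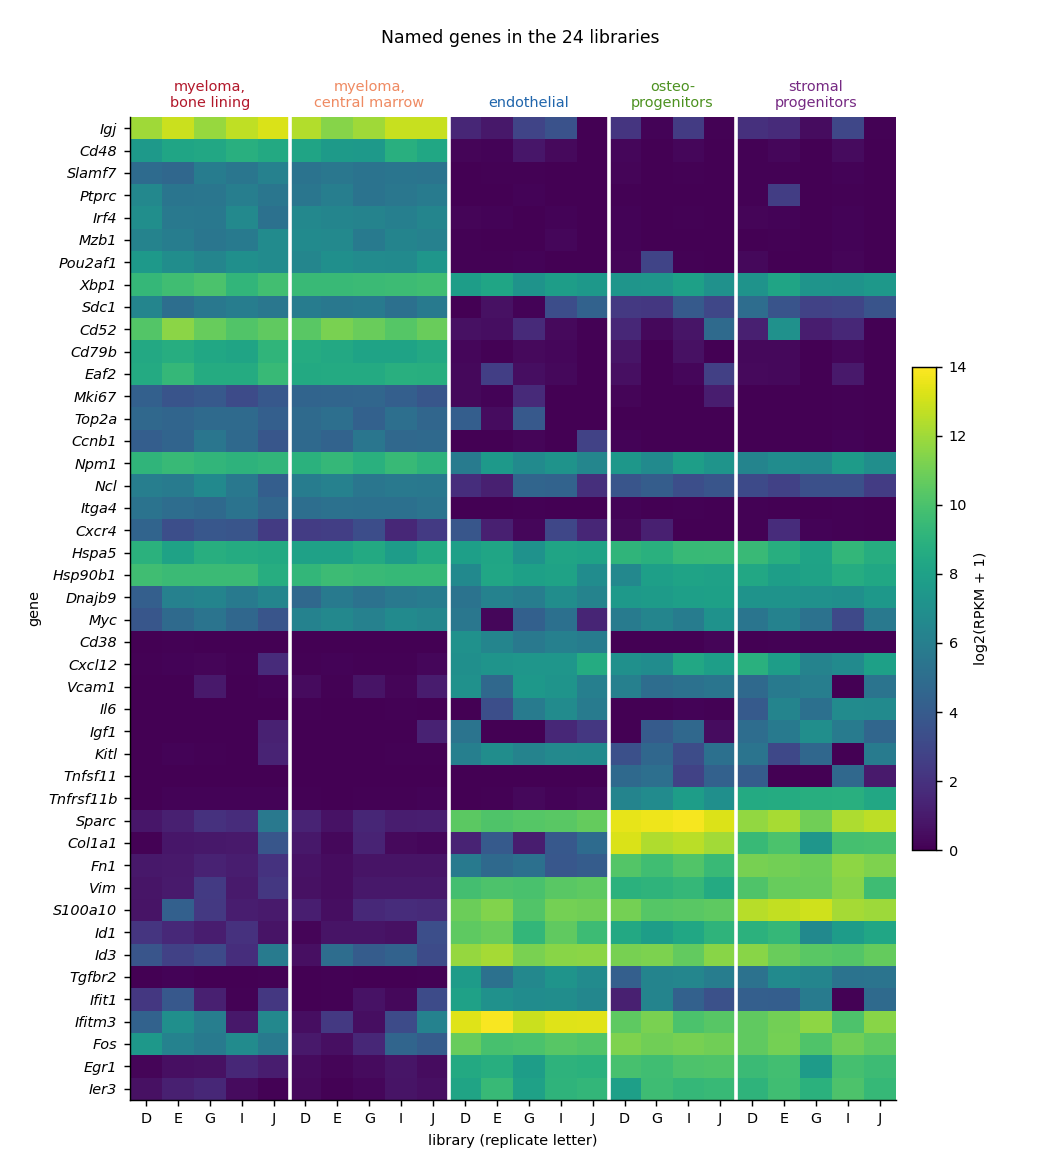
Heat map of 44 genes (rows, grouped by role) in the 10 myeloma and 14 niche libraries (columns, by group and letter), coloured by log2(RPKM + 1). Igj stands at 2843 to 9357 RPKM in the myeloma columns and at most 10.4 RPKM in the niche columns, while Sparc shows the opposite, at most 49.8 RPKM against at least 1117 RPKM.

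The genes of plasma cell identity set the myeloma libraries apart. Of 33 tested, 25 were higher, 2 lower and 6 not called, with a median log2 fold change of 2.96 against 0.22 over all genes, and 18 did not overlap between the groups. Irf4, the transcription factor that plasma and myeloma cells depend on, measured 36.9 to 122 RPKM (median 77.6) against 0 to 0.156 RPKM, median 0.0751 (log2 fold change 6.08, SE 0.29, adjusted p = 2.27e-16). Pou2af1, the B cell coactivator of octamer-binding factors, measured 81.2 to 180.5 RPKM (median 113) against 0 to 6.23 RPKM, median 0.0454 (log2 fold change 6.59, adjusted p = 1.85e-15). Mzb1, a chaperone that helps antibody assembly, measured 44.6 to 108 RPKM (median 73.1) and was at 0 in 9 of 14 niche libraries (log2 fold change 6.13, adjusted p = 9.34e-17). No niche library reached the myeloma range of these 3 genes. Xbp1, which drives the expansion of the secretory pathway, measured 591 to 1059 RPKM (median 766) against 134 to 301 RPKM (median 167), without overlap but with a smaller difference (log2 fold change 2.06, SE 0.18, adjusted p = 1.14e-10).

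Prdm1, which encodes the repressor Blimp-1, measured 11.7 to 48.2 RPKM (median 18.7) in myeloma cells. Niche libraries fell into levels of 11.5, 8.40, 1.49, 15.9 and 0.135 RPKM in endothelial cells, 0, 9.27, 0.0244 and 0.0317 RPKM in osteoprogenitors and at most 0.0390 RPKM in stromal progenitors (log2 fold change 3.29, adjusted p = 1.78e-05). Endothelial library I thus lay within the myeloma range, and the groups overlapped. Sdc1, the plasma cell surface marker CD138, measured 32.8 to 82.8 RPKM (median 50.8) against 0.0175 to 31.0 RPKM, median 6.77 (log2 fold change 2.96, adjusted p = 2.34e-05), and stromal progenitor library D at 31.0 RPKM was just below the lowest myeloma library.

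The pair of plasma cell genes that were lower are both surface proteins. Cd38 was not called with bone lining myeloma cells only, central marrow cells only or their mean for each letter (adjusted p = 0.201, 0.199 and 0.205). Cd38, an ectoenzyme whose human form is a target of antibody therapy, was at 0 in 5 of 10 myeloma libraries and at most 0.0710 RPKM. Among niche cells it was found in endothelial cells, with 135, 80.4, 49.0, 67.0 and 58.7 RPKM in libraries D, E, G, I and J, while osteoprogenitors and stromal progenitors had at most 0.136 RPKM (log2 fold change -2.22, adjusted p = 0.0434, not called under 3 of 22 alternatives). Cd81, a tetraspanin of the B cell surface, measured 218 to 451 RPKM (median 288) against 401 to 1871 RPKM, median 1098 (log2 fold change -1.70, adjusted p = 4.22e-06, not called under 1 of 23 alternatives), and the lowest osteoprogenitor library was the niche library inside the myeloma range, at 401 RPKM.

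Genes of earlier B cell stages moved both ways. Of 8 tested, 4 were higher, 1 lower and 3 not called (median log2 fold change 1.03). Cd79b, a signalling chain of the B cell receptor and a member of the plasma cell list here, measured 278 to 569 RPKM (median 344) against 0 to 0.741 RPKM, median 0.183 (log2 fold change 8.24, adjusted p = 1.29e-19). Fcrla, an intracellular immunoglobulin-binding protein of B cells, measured 4.34 to 52.8 RPKM (median 26.3) and was at 0 in 11 of 14 niche libraries (log2 fold change 4.56, adjusted p = 2.64e-12). Cd74, the invariant chain of MHC class II, measured 307 to 822 RPKM (median 542) against 0 to 136 RPKM, median 0.641 (log2 fold change 7.55, adjusted p = 6.58e-10), and endothelial libraries D and I alone among the niche held a high level, at 67.5 and 136 RPKM.

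Ebf1, a factor of early B cells that mesenchymal cells also use, measured 0 to 0.0545 RPKM (median 0) in myeloma cells, and every niche library was higher, at 0.168 to 39.3 RPKM, median 7.44 (log2 fold change -3.08, adjusted p = 2.28e-05). Bach2, a repressor of the plasma cell programme, had at most 0.00480 RPKM in any myeloma library and 0 to 16.6 RPKM in niche libraries, below the fold threshold (log2 fold change -0.93, adjusted p = 0.0589, called under 8 of 20 alternatives). Blnk, the adaptor below the B cell receptor, named after its values were seen, measured 181 to 275 RPKM (median 214) against 0 to 6.32 RPKM, median 0.0903 (log2 fold change 7.44, adjusted p = 5.04e-17).

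Genes common to leukocytes were mostly higher, with 20 of 28 tested higher and 2 lower (median log2 fold change 2.68), and 21 higher and 2 lower without stromal progenitor library E. Niche cells were sorted as CD45-, so the sort selected against leukocytes. Coro1a, an actin regulator of blood cells, measured 37.3 to 114 RPKM (median 57.4) against 0 to 19.7 RPKM, median 0.0355 (log2 fold change 5.54, adjusted p = 1.65e-11), and stromal progenitor library J alone among the niche passed 1 RPKM, at 19.7 RPKM. Cd53, a leukocyte tetraspanin, measured 112 to 354 RPKM (median 207) against 0 to 21.9 RPKM, median 0.136 (log2 fold change 7.15, adjusted p = 1.13e-13), with the highest niche value in stromal progenitor library E. Laptm5, a lysosomal protein of lymphoid cells, was higher but low and uneven in the tumour itself, at 0.272, 0.325, 1.09, 3.50 and 2.22 RPKM in bone lining and 12.4, 0.0154, 2.76, 1.15 and 0.274 RPKM in central marrow libraries D, E, G, I and J (log2 fold change 1.27, adjusted p = 0.00158, not called under 1 of 20 alternatives). Lsp1, a leukocyte-specific protein by name, was lower in myeloma cells, at 0 to 2.91 RPKM (median 0.116), than in stromal progenitors at 26.1 to 91.3 RPKM and osteoprogenitors at 67.1 to 201 RPKM (log2 fold change -3.48, adjusted p = 0.00390 against all niche libraries). Arhgdib, a GDP-dissociation inhibitor of blood cells, was lower as well (log2 fold change -1.84, adjusted p = 0.0100, not called under 1 of 23 alternatives), with its highest value of 408 RPKM in osteoprogenitor library D.

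Besides Igj, Cd79b and Cd48, the 10 largest rises without overlap held 7 further genes. Cd52, a small GPI-anchored glycoprotein of lymphocytes, measured 1164 to 3075 RPKM (median 1639) against 0 to 136 RPKM, median 0.969 (log2 fold change 9.13, adjusted p = 5.39e-13), and its highest niche level was in stromal progenitor library E. Pgam2, the muscle form of phosphoglycerate mutase, measured 302 to 701 RPKM (median 402) against 0 to 0.678 RPKM, median 0.0815 (log2 fold change 8.54, adjusted p = 1.14e-19). Rhox5, an X-linked homeobox gene of the reproductive tract that tumour lines often express, measured 1166 to 2304 RPKM (median 1624) against 0 to 39.5 RPKM, median 6.89 (log2 fold change 8.45, adjusted p = 5.09e-13). Neither Pgam2 nor Rhox5 is a marker of the lineage.

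Ctss, a lysosomal protease of antigen-presenting cells, measured 941 to 2113 RPKM (median 1385) against 0 to 80.4 RPKM, median 1.80 (log2 fold change 8.53, adjusted p = 4.69e-12). Slpi, a secreted protease inhibitor, measured 235 to 1130.4 RPKM (median 738) against 0 to 38.3 RPKM, median 0.415 (log2 fold change 8.31, adjusted p = 8.62e-14). Eaf2, an elongation factor partner known in B cells, measured 357 to 678 RPKM (median 395) against 0 to 5.22 RPKM, median 0.236 (log2 fold change 8.15, adjusted p = 3.44e-17). All 3 lay above every niche library, and the highest niche libraries were endothelial library I for Ctss, stromal progenitor library E for Slpi and osteoprogenitor library J for Eaf2. Hist3h2ba, a histone H2B gene, was higher too (log2 fold change 7.80, adjusted p = 1.01e-13), but histone copies share sequence and its level is uncertain.

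**Figure D2:**
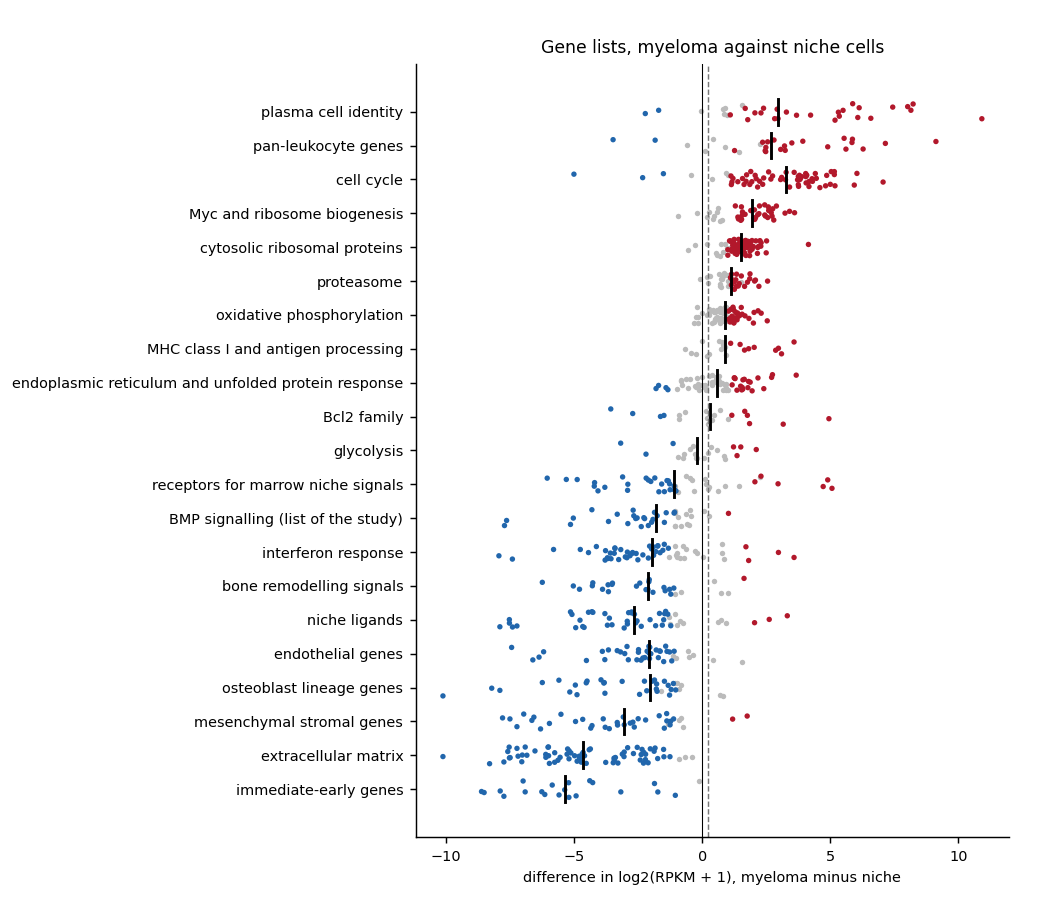
Log2 fold change of myeloma against niche cells on log2(RPKM + 1) for each tested gene of each list (points; red called higher, blue called lower, grey not called), with the list median as a black bar and the median of all genes, 0.22, as a dashed line. Cell cycle genes centre at 3.28, extracellular matrix genes at -4.66 and immediate-early genes at -5.37, while oxidative phosphorylation genes centre at 0.88, nearer the line.

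Genes of the cell cycle were higher as a body in myeloma cells, with 56 of 63 tested higher, 3 lower and 4 not called. Their median log2 fold change was 3.28, and 25 did not overlap. Mki67, the proliferation antigen Ki-67, measured 8.13 to 23.7 RPKM (median 15.9) against 0 to 2.16 RPKM, median 0.0294 (log2 fold change 3.80, SE 0.30, adjusted p = 3.08e-11). Ube2c, the ubiquitin-conjugating enzyme of the anaphase-promoting complex, measured 156 to 335 RPKM (median 227) against 0 to 32.3 RPKM, median 0.289 (log2 fold change 7.07, adjusted p = 5.91e-13). Ccnb1, the mitotic cyclin B1, measured 12.6 to 44.4 RPKM (median 26.0) against 0 to 5.76 RPKM, median 0.00832 (log2 fold change 4.46, adjusted p = 1.75e-11). The median niche library was below 1 RPKM for all 3 mitotic genes, and no niche library reached the lowest myeloma library. Top2a, the topoisomerase of dividing cells, was found in the niche mainly in endothelial libraries D and G, at 17.3 and 13.8 RPKM, under the lowest myeloma library at 17.9 RPKM (log2 fold change 4.09, adjusted p = 8.80e-08).

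A pair of genes of DNA replication overlapped between the groups. Mcm5, a subunit of the replicative helicase, measured 13.1 to 66.9 RPKM (median 32.2) against 0 to 22.1 RPKM, median 0.269 (log2 fold change 3.59, adjusted p = 7.88e-06). Pcna, the sliding clamp, measured 70.4 to 175 RPKM (median 109) against 14.6 to 133 RPKM, median 34.3 (log2 fold change 1.64, adjusted p = 6.90e-05). Endothelial library D reached 133 RPKM of Pcna, inside the myeloma range. The 3 members that were lower were Cdkn1c, Ccnd1 and the CDK inhibitor gene Cdkn1a (not called under 2 of 23 alternatives). Cdkn1c, the CDK inhibitor p57, measured at most 0.0730 RPKM in myeloma cells and 1.09 to 146 RPKM (median 33.8) in niche cells (log2 fold change -5.01, adjusted p = 4.36e-09). Ccnd1, the G1 cyclin D1, measured 0 to 2.94 RPKM (median 0.290) against 0 to 69.4 RPKM, median 6.33 (log2 fold change -2.32, adjusted p = 9.95e-04). Against each niche type alone, the counts were 53 higher and 2 lower of 63 for endothelial cells, 55 and 3 for osteoprogenitors, and 56 and 3 for stromal progenitors.

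Genes of ribosome biogenesis and the Myc network were higher in 32 of 42 tested and lower in 0, with a median log2 fold change of 1.96. Ncl, which encodes nucleolin, measured 16.9 to 98.0 RPKM (median 52.9) against 1.37 to 23.0 RPKM, median 9.55 (log2 fold change 2.56, adjusted p = 6.61e-06). Npm1, the nucleolar chaperone nucleophosmin, measured 469 to 685 RPKM (median 579) against 56.5 to 227 RPKM (median 114) without overlap (log2 fold change 2.22, SE 0.22, adjusted p = 1.73e-09). Nhp2, a core protein of box H/ACA ribonucleoproteins, measured 334 to 876 RPKM (median 626) against 0.719 to 180.1 RPKM, median 63.4 (log2 fold change 3.61, adjusted p = 2.99e-06). Nop56, of the box C/D particles, measured 39.2 to 191 RPKM (median 88.2) against 1.38 to 54.6 RPKM, median 4.48 (log2 fold change 3.41, adjusted p = 1.42e-06). Npm1 and Nhp2 lay above every niche library, while osteoprogenitor library J was within the myeloma range of Nop56. Myc itself measured 12.4, 28.0, 40.6, 25.0 and 12.1 RPKM in bone lining and 72.9, 91.7, 71.5, 103 and 85.4 RPKM in central marrow libraries D, E, G, I and J, and 0.185 to 138 RPKM (median 43.7) in niche cells (log2 fold change 0.62, adjusted p = 0.446, called under 1 of 23 alternatives). The 5 bone lining libraries of Myc were all below the 5 central marrow libraries, and both lay within the niche range. Max, the partner of Myc, was not called either (log2 fold change -0.95, adjusted p = 0.175, called under 3 of 23 alternatives).

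Genes of cytosolic ribosomal proteins were higher in 63 of 74 tested and lower in 0 (median log2 fold change 1.51), and 36 did not overlap. Rpl24 of the large subunit measured 21.4 to 76.9 RPKM (median 44.2) against 0 to 15.1 RPKM, median 1.64 (log2 fold change 4.15, adjusted p = 5.48e-09). Rpl3 measured 32.5 to 59.9 RPKM (median 41.4) against 17.9 to 47.1 RPKM (median 23.6) below the fold threshold (log2 fold change 0.70, adjusted p = 0.0241, called under 1 of 23 alternatives). Rps6 of the small subunit measured 5.80 to 29.6 RPKM (median 16.6) against 0.855 to 46.2 RPKM, median 15.4 (log2 fold change 0.59, adjusted p = 0.369, called under 1 of 23 alternatives). These genes have many near-identical copies in the genome, the default counting leaves out reads that map to several places, and their low levels are uncertain for that reason.

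The number of proteasome and respiration genes called depended on the scaling. Of 40 proteasome genes 21 were higher and 0 lower (median log2 fold change 1.13), beside 26.4% higher and 22.2% lower over all genes. With scaling to total reads 36 were higher, beside 4840 of all 11966 genes tested. Psmd14, the deubiquitinase of the proteasome lid, measured 170.0 to 392 RPKM (median 256) against 0.139 to 184 RPKM, median 87.2 (log2 fold change 2.55, adjusted p = 0.00540). Psmg2, an assembly chaperone, measured 309 to 551 RPKM (median 361) against 0.465 to 337 RPKM, median 91.2 (log2 fold change 2.22, adjusted p = 0.00138). Psmd4, a ubiquitin receptor, measured 97.7 to 348 RPKM (median 149) against 15.0 to 227 RPKM (median 89.2) and just missed the fold threshold (log2 fold change 0.99, adjusted p = 0.0239, called under 6 of 23 alternatives). All 3 overlapped, and endothelial library D, osteoprogenitor library I and stromal progenitor library I were the lowest niche libraries for Psmd14, at 0.139, 1.63 and 1.93 RPKM.

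Of 75 oxidative phosphorylation genes 28 were higher and 0 lower (median log2 fold change 0.88), beside 26.4% higher and 22.2% lower over all genes. With scaling to total reads 65 were higher, beside 4840 of all 11966 genes tested. Ndufa4 measured 2321 to 4979 RPKM (median 3227) against 344 to 2488 RPKM, median 681 (log2 fold change 2.0, adjusted p = 2.99e-07). Atp5b, a catalytic subunit of ATP synthase, measured 373 to 829 RPKM (median 433) against 42.5 to 339 RPKM, median 191 (log2 fold change 1.25, adjusted p = 3.07e-04, not called under 1 of 23 alternatives). Without letter D the log2 fold change of Atp5b was 0.98. Cox6c, of cytochrome c oxidase, stayed under the fold threshold (log2 fold change 0.49, adjusted p = 0.0542, called under 1 of 23 alternatives). Of glycolysis genes 4 of 21 were higher and 3 lower, shares no larger than the 26.4% and 22.2% of all genes. Their median of -0.21 turned to 0.49 with scaling to total reads.

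Within glycolysis the isoforms differed. Ldha, the lactate dehydrogenase A chain, measured 96.1 to 284 RPKM (median 119) against 22.7 to 329 RPKM, median 187 (log2 fold change -0.21, adjusted p = 0.613). Ldhb, the B chain, was at most 0.0580 RPKM in myeloma cells and 0 to 76.0 RPKM (median 13.3) in niche cells (log2 fold change -3.18, adjusted p = 0.001004). Slc16a1, the lactate transporter MCT1, measured 12.9 to 46.3 RPKM (median 18.5) against 0.0605 to 28.5 RPKM, median 4.61 (log2 fold change 2.11, adjusted p = 0.00367, not called under 1 of 23 alternatives). Tpi1, triosephosphate isomerase, measured 52.8 to 152 RPKM (median 68.9) against 1.57 to 98.0 RPKM, median 34.8 (log2 fold change 1.51, adjusted p = 0.0126, not called under 3 of 23 alternatives). Pfkfb3, which makes the activator of phosphofructokinase, was at most 0.0594 RPKM in myeloma cells and 0 to 23.9 RPKM in niche cells (log2 fold change -2.19, adjusted p = 3.96e-04).

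The endoplasmic reticulum folds secreted proteins, and its chaperones are induced by the unfolded protein response that plasma cells use. Of 63 tested genes 20 were higher, 4 lower and 39 not called, beside 26.4% higher and 22.2% lower over all genes, with a median log2 fold change of 0.58 against 0.22. With scaling to total reads the counts were 38 higher and 2 lower. Against endothelial cells 34 were higher and 3 lower, beside 33.4% and 19.2% of all genes tested there. Against osteoprogenitors 16 were higher and 12 lower, beside 30.0% and 20.3% of all genes tested there. Against stromal progenitors 16 were higher and 8 lower, beside 30.8% and 20.6% of all genes tested there. The difference between these counts was not tested. Pdia4, a protein disulfide isomerase, measured 44.7 to 198 RPKM (median 107) against 0.0701 to 47.9 RPKM, median 7.92 (log2 fold change 3.67, adjusted p = 6.66e-06). Atf6, a sensor of unfolded protein, measured 6.84 to 31.8 RPKM (median 16.7) against 0.01996 to 9.24 RPKM, median 1.01 (log2 fold change 2.75, adjusted p = 8.91e-06). Sdf2l1, a chaperone cofactor, measured 35.2 to 124 RPKM (median 74.7) against 0.113 to 90.6 RPKM, median 23.1 (log2 fold change 1.95, adjusted p = 0.0136, not called under 3 of 23 alternatives), with wide niche values that reached into the myeloma range.

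The best-known chaperones of the compartment differed from each other. Hsp90b1, which encodes GRP94, measured 422 to 820.4 RPKM (median 733) in myeloma cells and 91.0 to 411 RPKM (median 259) in niche cells, with no overlap (log2 fold change 1.58, SE 0.23, adjusted p = 3.28e-06). Hspa5, which encodes BiP, measured 212 to 488 RPKM (median 364) in myeloma cells. In niche cells it was 242, 303, 141, 287 and 262 RPKM in endothelial libraries D, E, G, I and J, 565, 478, 695 and 728 RPKM in osteoprogenitors D, G, I and J and 716, 438, 277, 610.3 and 421 RPKM in stromal progenitors D, E, G, I and J (log2 fold change -0.27, adjusted p = 0.391). The myeloma range thus held 4 of the 5 endothelial libraries, and 3 of the 4 osteoprogenitor libraries were above it. Against osteoprogenitors alone Hspa5 had a log2 fold change of -0.88 (adjusted p = 0.00358) and against endothelial cells of 0.46 (adjusted p = 0.125).

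The 4 lower genes were Ddit3, Selk, Dnajb9 and the coat protein gene Sec24d (not called under 12 of 23 alternatives). Ddit3, the stress factor CHOP, measured 18.2 to 66.7 RPKM (median 32.0) against 50.2 to 211 RPKM, median 133 (log2 fold change -1.80, adjusted p = 1.53e-05). Selk, a selenoprotein of the ER membrane, measured 104 to 245 RPKM (median 169.9) against 261 to 764 RPKM, median 539.9 (log2 fold change -1.70, adjusted p = 3.32e-08). Dnajb9, a BiP cochaperone, measured 18.2 to 83.3 RPKM (median 53.9) against 39.2 to 246 RPKM, median 138 (log2 fold change -1.34, adjusted p = 0.00149, not called under 1 of 23 alternatives), highest in osteoprogenitors at 179.7 to 246 RPKM.

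The 250 bases before the gene start are shown for Hspa5 and Hsp90b1, since both carry the ER stress response element and their levels in myeloma cells stood differently to the niche. The element was searched as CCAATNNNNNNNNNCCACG on both strands of the RefSeq GRCm38.p6 promoters, and matches are in capitals. Sequences read 5′ to 3′ on the strand of the gene, Hspa5 at chr2:34771840-34772089 on the plus strand and Hsp90b1 at chr10:86705445-86705694 on the minus strand.
Hspa5: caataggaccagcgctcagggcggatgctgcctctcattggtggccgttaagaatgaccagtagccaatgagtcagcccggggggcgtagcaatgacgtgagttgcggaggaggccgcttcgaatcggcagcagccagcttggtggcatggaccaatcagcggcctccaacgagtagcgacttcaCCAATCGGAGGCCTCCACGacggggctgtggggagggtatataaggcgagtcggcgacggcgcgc
Hsp90b1: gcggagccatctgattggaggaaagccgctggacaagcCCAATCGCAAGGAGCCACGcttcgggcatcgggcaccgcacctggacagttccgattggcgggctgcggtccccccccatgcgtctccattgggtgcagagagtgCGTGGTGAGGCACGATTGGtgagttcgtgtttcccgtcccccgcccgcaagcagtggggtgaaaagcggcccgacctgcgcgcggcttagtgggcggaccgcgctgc
Hspa5 held 1 match, which starts 65 bases before the gene start, and Hsp90b1 held 2, at 212 and 107 bases. The element was present in 0.122% of 27025 promoters and in 9 of the 54 promoters matched for tested members of this list (Dnajc3, Hspa5, Canx, Syvn1, Calr, Hsp90b1, Creld2, Ero1lb and Pdia6). Of these 9 genes 4 were higher (Creld2 among them, not called under 6 of 23 alternatives), 0 lower and 5 not called in myeloma cells, with a median log2 fold change of 0.91. Of the 5 not called, Calr and Syvn1 were called under 3 of 23 alternatives each and Dnajc3 under 1 of 23. Of the 45 without a match 11 were higher, 4 lower and 30 not called, with a median of 0.39. A match is a description of the letters and was not tested as a site.

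Receptors through which plasma cells sense the marrow were called higher for 6 and lower for 25 of 45 tested genes, with a median log2 fold change of -1.08. The 6 higher genes were Itga4, Itgal, Tnfrsf13c, Sdc1, Tnfrsf13b and Cxcr4, and all act in adhesion, homing or B cell survival. Itga4, the alpha 4 integrin that binds VCAM1, measured 23.3 to 40.2 RPKM (median 34.9) against 0 to 0.0803 RPKM, median 0.0231 (log2 fold change 5.07, SE 0.26, adjusted p = 1.82e-15). Itgal, the alpha chain of LFA-1, measured 14.2 to 58.7 RPKM (median 33.4) against 0 to 2.79 RPKM, median 0.0110 (log2 fold change 4.90, adjusted p = 2.69e-13). Neither integrin chain overlapped between the groups, and the highest niche level of Itgal was in stromal progenitor library E. Cxcr4, the receptor of CXCL12, measured 21.5, 9.45, 12.9, 11.7 and 4.37 RPKM in bone lining and 4.53, 5.12, 8.73, 1.996 and 4.14 RPKM in central marrow libraries D, E, G, I and J, against 0 to 12.5 RPKM (median 0.193) in niche cells (log2 fold change 2.06, adjusted p = 7.37e-04). Endothelial libraries D and I, at 12.5 and 6.98 RPKM, lay within the myeloma range.

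Receptors for BAFF and APRIL were named after their values were seen. Tnfrsf13c, the BAFF receptor, measured 8.40 to 43.1 RPKM (median 29.7) against at most 0.168 RPKM in niche cells (log2 fold change 4.73, adjusted p = 1.57e-13). Tnfrsf13b, the receptor TACI, was at 0 in all 14 niche libraries and measured 3.80, 24.3, 20.7, 0.994 and 6.49 RPKM in bone lining and 17.3, 0, 0.965, 3.42 and 0.313 RPKM in central marrow libraries D, E, G, I and J, a mean at least 19.8-fold higher at a limit of 3 reads per library (log2 fold change 2.30, adjusted p = 1.37e-04). Its level was uneven, and central marrow library E had none. Tnfrsf17, which encodes BCMA, was not analysed here. Il6ra, the alpha chain of the IL-6 receptor, was low throughout, at 0 to 4.23 RPKM in myeloma and 0 to 1.86 RPKM in niche cells (log2 fold change 0.61, adjusted p = 0.0729, called under 3 of 18 alternatives). Igf1r, the IGF-1 receptor, measured 0.817 to 7.81 RPKM (median 4.80) against 0 to 12.9 RPKM, median 4.43 (log2 fold change 0.17, adjusted p = 0.793, 95% interval -0.78 to 1.11), so no difference was detected.

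The 25 lower receptors included those of growth factors and cytokines to which stroma and vessels respond. Tgfbr2, the type II TGF-beta receptor, measured at most 0.104 RPKM in myeloma cells and 17.9 to 205 RPKM (median 79.6) in niche cells (log2 fold change -6.05, SE 0.36, adjusted p = 3.47e-14). Tgfbr1, its type I partner, named after its values were seen, was at most 0.0396 RPKM against 10.0 to 73.8 RPKM (log2 fold change -4.88, adjusted p = 1.14e-12). S1pr1, the sphingosine 1-phosphate receptor, measured 0 to 0.445 RPKM against 791, 1012, 229, 568 and 399 RPKM in endothelial libraries D, E, G, I and J (log2 fold change -5.30, adjusted p = 3.51e-05 over all niche cells). Every niche library exceeded every myeloma library for both TGF-beta receptors.

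Further receptors of this kind, also named after their values were seen, still had transcripts in the tumour. Ifngr1, a chain of the interferon gamma receptor, measured 1.27 to 26.9 RPKM (median 9.07) against 34.4 to 289 RPKM, median 80.0 (log2 fold change -3.11, adjusted p = 4.96e-07). Tnfrsf1a, the TNF receptor 1, measured 0.486 to 8.21 RPKM (median 3.01) against 9.63 to 153 RPKM, median 64.7 (log2 fold change -3.80, adjusted p = 4.16e-08). Itgb1, the beta 1 integrin that pairs with alpha 4, measured 24.6 to 65.0 RPKM (median 36.7) against 93.7 to 310.0 RPKM, median 183 (log2 fold change -2.19, adjusted p = 5.36e-08). All 3 were below every niche library.

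Ligands that the niche presents were lower in 37 of 49 tested and higher in 3, with a median log2 fold change of -2.64. Cxcl12, the chemokine that retains haematopoietic cells in marrow, measured 125, 149, 161, 163 and 396 RPKM in endothelial libraries D, E, G, I and J, 129.6, 109, 329.8 and 232 RPKM in osteoprogenitors D, G, I and J and 474, 224, 75.7, 101 and 248 RPKM in stromal progenitors D, E, G, I and J. In myeloma cells it measured 0.0522 to 2.26 RPKM (median 0.0795), with the highest value in bone lining library J (log2 fold change -7.23, SE 0.34, adjusted p = 1.78e-16). All 3 niche types thus carried Cxcl12, and the groups did not overlap. Vcam1, the ligand of the alpha 4 integrin, measured 0.0354 to 178 RPKM (median 48.1) in niche cells and 0 to 1.12 RPKM (median 0.125) in myeloma cells (log2 fold change -5.08, adjusted p = 2.74e-08), and stromal progenitor library I alone of the niche was near 0, at 0.0354 RPKM. Kitl, the stem cell factor, was highest in endothelial cells at 65.9, 116, 76.6, 94.9 and 98.2 RPKM in D, E, G, I and J, and at most 1.62 RPKM in myeloma cells (log2 fold change -4.66, adjusted p = 3.08e-07).

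Cytokines known to promote myeloma growth were found in particular niche cells. Il6 measured 0, 9.40, 55.2, 108 and 56.4 RPKM in endothelial libraries D, E, G, I and J and 14.7, 79.2, 35.4, 108 and 105 RPKM in stromal progenitors D, E, G, I and J, but at most 0.116 RPKM in osteoprogenitors and 0.0463 RPKM in myeloma cells (log2 fold change -3.62, adjusted p = 0.00127). Igf1 measured 0 to 40.2 RPKM in endothelial cells, 0.0126 to 25.1 RPKM in osteoprogenitors and, in stromal progenitors, 30.5, 51.3, 119, 56.2 and 23.8 RPKM in D, E, G, I and J, and at most 1.54 RPKM in myeloma cells (log2 fold change -3.05, adjusted p = 0.00180). Tnfsf13b, which encodes BAFF, was above 1 RPKM only in stromal progenitor libraries D, E and I, at 47.8, 22.9 and 65.7 RPKM, and in bone lining myeloma library E at 2.96 RPKM (log2 fold change -0.76, adjusted p = 0.377). Library E of the stromal progenitors is the library with neutrophil transcripts. Spp1, which encodes osteopontin, measured 4.93 to 29095 RPKM (median 7352) in niche cells and 2.04 to 39.9 RPKM (median 16.5) in myeloma cells (log2 fold change -7.90, adjusted p = 1.22e-06, not called with voom). Cxcl1, a neutrophil chemokine, measured 4.85 to 1810.2 RPKM (median 317) in niche cells and 0 to 0.947 RPKM (median 0.381) in myeloma cells (log2 fold change -7.53, adjusted p = 1.28e-10).

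The 3 ligands that were higher were Mif, Vegfb and Ccl25. Mif, the macrophage migration inhibitory factor that binds CD74, measured 414 to 929.6 RPKM (median 606) against 11.9 to 294 RPKM (median 118) without overlap (log2 fold change 2.62, adjusted p = 1.03e-06). Ccl25, a chemokine of the thymus and gut, measured 11.8 to 75.3 RPKM (median 23.3) against 0 to 85.4 RPKM, median 0.0456 (log2 fold change 3.32, adjusted p = 6.12e-04), where stromal progenitor libraries E and I reached 57.1 and 85.4 RPKM. App, another ligand of CD74, and Csf1, the macrophage growth factor, both named after their values were seen, were lower. App measured 0.0243 to 2.76 RPKM (median 0.0805) against 133 to 375 RPKM, median 289 (log2 fold change -7.41, adjusted p = 2.82e-17). Csf1 measured 0 to 0.289 RPKM (median 0.0107) against 1.47 to 96.9 RPKM, median 8.57 (log2 fold change -3.52, adjusted p = 3.05e-07).

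**Figure D3:**
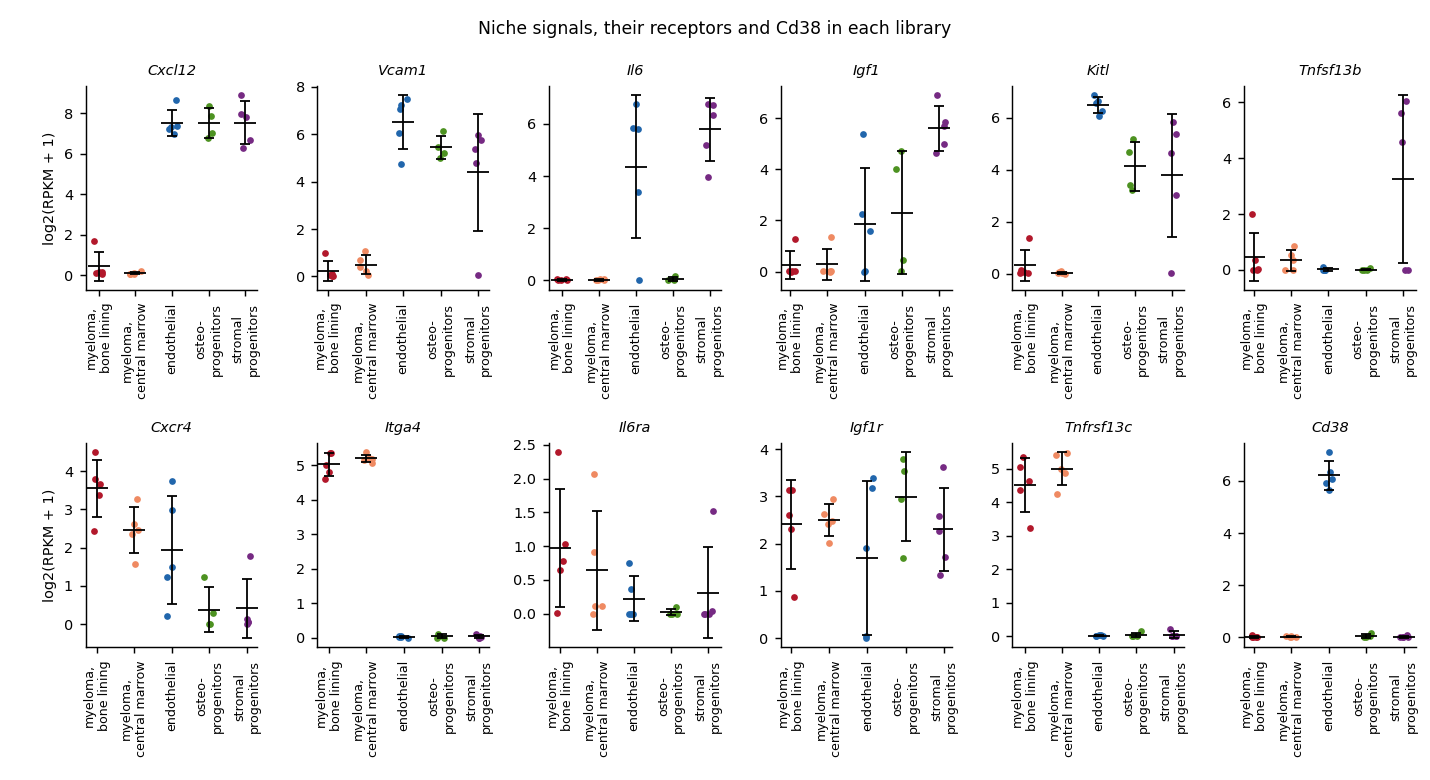
Levels, as log2(RPKM + 1), of 6 niche ligands (Cxcl12, Vcam1, Il6, Igf1, Kitl and Tnfsf13b), receptors (Cxcr4, Itga4, Il6ra, Igf1r and Tnfrsf13c) and the ectoenzyme Cd38. Groups are bone lining and central marrow myeloma cells, endothelial cells, osteoprogenitors and stromal progenitors. Points are libraries, the line is the mean and bars are the SD, all on this log scale. Cxcl12 is at most 2.26 RPKM in myeloma libraries and at least 75.7 RPKM in every niche library, while Itga4 runs the other way, at 23.3 to 40.2 RPKM in myeloma libraries and at most 0.0803 RPKM in niche libraries.

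Signals of bone remodelling were lower for 22 and higher for 1 of 28 tested genes (median log2 fold change -2.10). Tnfsf11, the osteoclast factor RANKL, was at 0 in all 10 myeloma and all 5 endothelial libraries. It measured 27.0, 33.0, 5.88 and 19.7 RPKM in osteoprogenitors D, G, I and J, a mean at least 213-fold above the myeloma limit of 3 reads per library, and 16.1, 0, 0.0268, 25.6 and 0.986 RPKM in stromal progenitors D, E, G, I and J (log2 fold change -1.92, adjusted p = 0.0187, not called under 3 of 21 alternatives over all niche cells). Its decoy receptor Tnfrsf11b, osteoprotegerin, measured 78.3, 107, 220.0 and 123 RPKM in osteoprogenitors and 383, 394, 442, 460.4 and 339 RPKM in stromal progenitors in the same order, and at most 0.117 RPKM in myeloma cells (log2 fold change -5.03, adjusted p = 7.01e-04). The most reads of Tnfrsf11b in any myeloma library were 7. Dkk1, a Wnt inhibitor, measured 69.4, 16.8, 9.78 and 16.4 RPKM in osteoprogenitors D, G, I and J, and was found in a single myeloma library at 0.0216 RPKM (log2 fold change -1.27, adjusted p = 0.0993, not called under 9 of 18 alternatives).

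Wif1, another Wnt inhibitor, measured 869 to 1941 RPKM in osteoprogenitors and 162 to 849 RPKM in stromal progenitors but at most 0.394 RPKM in myeloma cells (log2 fold change -6.24, adjusted p = 1.48e-04). Ccl3, an osteoclast-activating chemokine, measured 16.8, 17.1, 2.79, 0 and 0 RPKM in bone lining myeloma libraries D, E, G, I and J and 0 in all 5 central marrow libraries, and 16.4 RPKM in stromal progenitor library E alone of the niche (log2 fold change 0.73, adjusted p = 0.274, called under 1 of 16 alternatives). With bone lining myeloma cells only it was called higher (log2 fold change 1.76, adjusted p = 0.0588). Bone lining library G, with 2.79 RPKM, also held 42.2 RPKM of the macrophage gene C1qb, and bone lining library D 35.5 RPKM of the myeloid lysozyme Lyz2. The part of such cells in the Ccl3 values was not tested. Il17ra, the IL-17 receptor A, was the higher gene, at 0.650 to 23.1 RPKM (median 4.48) against 0 to 20.5 RPKM, median 0.0167 (log2 fold change 1.64, adjusted p = 0.0174, not called under 2 of 23 alternatives). Without letter D the call of Il17ra was lost (adjusted p = 0.103). Sema4d, an osteoclast semaphorin, was not called (log2 fold change 1.0, adjusted p = 0.139, called under 6 of 23 alternatives).

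BMP signalling genes were lower for 24 and higher for 1 of 38 tested (median log2 fold change -1.81), and the higher gene was lost without stromal progenitor library E (0 of 37). The study designed this list after it found Bmpr1b differentially expressed in stromal progenitors, so the list is no independent evidence of direction. The targets Id1 and Id3, inhibitors of differentiation, showed the largest gaps. Id1 measured 0.154 to 9.27 RPKM (median 0.926) against 100.4 to 1764 RPKM, median 529 (log2 fold change -7.64, SE 0.45, adjusted p = 2.78e-14). Id3 measured 0.490 to 55.4 RPKM (median 9.99) against 1216 to 4396 RPKM, median 2373 (log2 fold change -7.72, adjusted p = 3.88e-15). The receptors were lower as well. Bmpr1a measured 0.437 to 8.95 RPKM (median 1.46) against 0.00977 to 51.2 RPKM, median 9.46 (log2 fold change -1.47, adjusted p = 0.0686, not called under 12 of 23 alternatives). Bmpr1b was at 0 in 9 of 10 myeloma libraries against 7.70, 3.43, 6.99, 0.879 and 7.03 RPKM in stromal progenitors D, E, G, I and J (log2 fold change -1.10, adjusted p = 0.0289, not called under 4 of 21 alternatives). Smad1, which BMP receptors phosphorylate and which was named after its values were seen, measured 0 to 0.537 RPKM (median 0.00607) against 1.51 to 36.9 RPKM, median 14.5 (log2 fold change -3.66, adjusted p = 1.14e-08). The shared partner Smad4 was the higher gene, at 13.9 to 59.6 RPKM (median 30.6) against 4.37 to 99.4 RPKM, median 13.1 (log2 fold change 1.03, adjusted p = 0.0653, not called under 10 of 23 alternatives). Among these, the call of Smad4 was lost without letter D, E, G or J (adjusted p up to 0.153), and that of Bmpr1a without D, G, I or J (adjusted p up to 0.157).

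Targets of myeloma drugs were higher for 9 and lower for 2 of 20 tested genes (median log2 fold change 0.87), beside 26.4% higher and 22.2% lower over all genes. Among them were the zinc finger factors that lenalidomide causes to be degraded in human cells. Ikzf1, Ikaros, measured 8.76 to 37.4 RPKM (median 16.8) against at most 0.0932 RPKM in niche cells (log2 fold change 4.23, adjusted p = 4.49e-13). Ikzf3, Aiolos, was at 0 in all 14 niche libraries and measured 3.27, 1.40, 1.36, 2.87 and 0.384 RPKM in bone lining and 0.0912, 1.67, 0.342, 3.03 and 0 RPKM in central marrow libraries D, E, G, I and J, a mean at least 19.96-fold higher (log2 fold change 1.10, adjusted p = 5.48e-04, not called under 3 of 21 alternatives). Without letter I its log2 fold change was 0.88, under the threshold. Crbn, cereblon, the ligase subunit that lenalidomide binds, measured 32.2 to 99.8 RPKM (median 48.3) against 0 to 67.0 RPKM, median 7.02 (log2 fold change 3.08, adjusted p = 3.52e-05), with endothelial library E at 67.0 RPKM inside the myeloma range. Psmb5, the proteasome subunit blocked by bortezomib, was found in both groups, 37.7 to 128 RPKM (median 60.2) and 0.246 to 123 RPKM, median 55.4 (log2 fold change 0.66, adjusted p = 0.287, called under 1 of 23 alternatives, 95% interval -0.37 to 1.69). Cd274, the checkpoint ligand PD-L1, named after its values were seen, measured 12.3 to 53.3 RPKM (median 21.4) against 0 to 91.3 RPKM, median 0.0538 (log2 fold change 3.67, adjusted p = 1.32e-05), with endothelial library E at 91.3 RPKM the exception.

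The Bcl2 family governs apoptosis, and 6 of 20 tested genes were higher and 4 lower (median log2 fold change 0.30), near the 26.4% higher and 22.2% lower of all genes. Among the survival proteins, Bcl2l1, Bcl-xL, measured 8.04 to 30.2 RPKM (median 17.4) against 0 to 23.6 RPKM, median 4.51 (log2 fold change 1.77, adjusted p = 0.00640). Mcl1 measured 122 to 280.5 RPKM (median 185) against 29.9 to 191 RPKM (median 97.2) just under the fold threshold (log2 fold change 0.99, adjusted p = 0.00713, called under 7 of 23 alternatives). Bcl2 measured 0 to 2.21 RPKM (median 0.616) against 0.219 to 33.0 RPKM, median 3.61 (log2 fold change -1.63, adjusted p = 0.00523, not called under 1 of 23 alternatives). Of these 3 only Bcl2 was lower, and its highest level was in endothelial library E at 33.0 RPKM. Among the death-promoting members, Pmaip1, NOXA, measured 78.7, 45.6, 58.6, 103 and 62.1 RPKM in bone lining and 20.4, 23.6, 27.9, 21.3 and 27.3 RPKM in central marrow libraries D, E, G, I and J, against 0 to 4.38 RPKM (median 0.0834) in niche cells (log2 fold change 4.95, adjusted p = 1.04e-11). Every bone lining library was above every central marrow library. Bid, the BH3 protein cleaved by caspase 8, measured 11.7 to 38.3 RPKM (median 26.2) against 0 to 32.6 RPKM, median 0.0428 (log2 fold change 3.17, adjusted p = 2.71e-04). Bok and Bnip3 were lower. Bok was at most 0.0523 RPKM against 0.0439 to 192 RPKM, median 15.3 (log2 fold change -3.57, adjusted p = 4.03e-04). Bnip3 measured 3.05 to 7.69 RPKM (median 5.46) against 0.0915 to 126 RPKM, median 51.7 (log2 fold change -2.71, adjusted p = 3.64e-04). Bcl2l11, BIM, was not called (log2 fold change 0.19, adjusted p = 0.757).

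Extracellular matrix genes were lower in 69 of 72 tested and higher in 0, with a median log2 fold change of -4.66, and 17 did not overlap. Sparc, osteonectin, a collagen-binding matrix protein, had the largest fall of any gene tested, with 0.579 to 49.8 RPKM (median 1.48) in myeloma cells and 1117 to 14351 RPKM (median 3991) in niche cells (log2 fold change -10.12, SE 0.53, adjusted p = 2.50e-15, not called with voom). Fn1, fibronectin, measured 0.382 to 3.11 RPKM (median 0.786) against 13.0 to 3124 RPKM, median 1003 (log2 fold change -7.53, adjusted p = 6.29e-08, not called with voom). Bgn, the proteoglycan biglycan, measured 0.154 to 33.2 RPKM (median 0.461) against 58.7 to 2244 RPKM, median 1060.0 (log2 fold change -8.30, adjusted p = 7.72e-12, not called with voom). For all 3 the highest myeloma value was in bone lining library J. The fibrillar collagens differed between niche cell types. Col1a1 measured 9341, 5144, 6110.2 and 4206 RPKM in osteoprogenitors D, G, I and J and 702, 1066, 162, 933 and 962 RPKM in stromal progenitors D, E, G, I and J. It measured 1.66, 14.4, 1.16, 13.4 and 28.6 RPKM in endothelial libraries D, E, G, I and J and 0.0781 to 12.6 RPKM (median 0.802) in myeloma cells (log2 fold change -7.02, adjusted p = 3.73e-05, not called with voom). Col1a2 and Col3a1 were lower as well (log2 fold change -6.84, adjusted p = 6.05e-05, not called with voom and log2 fold change -6.00, adjusted p = 1.36e-04, not called with voom). The members not called included P4ha1, a collagen prolyl hydroxylase of the ER, and Lamc1, the laminin gamma 1 chain (log2 fold change -0.65, adjusted p = 0.325 and log2 fold change -0.41, adjusted p = 0.418).

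The lists that define the niche cell types were lower in 36 of 43 endothelial, 29 of 36 osteoblast and 32 of 38 mesenchymal genes, with 0, 0 and 2 higher. Against endothelial cells alone all 43 endothelial genes tested were lower (median log2 fold change -5.61), and against osteoprogenitors alone 34 of 35 osteoblast genes were (-5.11). The niche cells were sorted for these identities, and such genes can pass the filter through the sorted type alone. These counts therefore describe the sort and are no test. Tek, the angiopoietin receptor, measured 160.2, 237, 108, 96.7 and 119 RPKM in endothelial libraries D, E, G, I and J and at most 0.0609 RPKM in myeloma cells (log2 fold change -7.06, adjusted p = 1.42e-12 against endothelial cells). Prrx1, a limb mesenchyme factor, measured 119, 77.7, 49.3, 68.8 and 106 RPKM in stromal progenitors D, E, G, I and J and at most 0.0316 RPKM in myeloma cells (log2 fold change -6.32, adjusted p = 2.32e-12 against stromal progenitors). Lepr, the leptin receptor of marrow stroma, was below every niche library (log2 fold change -4.30, adjusted p = 2.60e-08). Ly6a, the Sca1 by which stromal progenitors and osteoprogenitors were sorted, measured 0.0466 to 37.96 RPKM (median 0.749) in myeloma cells and 3349 to 6722 RPKM in endothelial cells, 776 to 2871 RPKM in stromal progenitors and 5.58 to 35.5 RPKM in the Sca1- osteoprogenitors (log2 fold change -7.51, adjusted p = 1.44e-06, not called with voom).

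Some genes of these lists also had transcripts in the tumour. Alpl, the alkaline phosphatase of osteoblasts, measured 14.1 to 71.5 RPKM (median 44.7) in myeloma cells, below osteoprogenitors at 102, 228, 335 and 131 RPKM in D, G, I and J but beside endothelial cells at 0.128 to 33.9 RPKM and stromal progenitors at 0.618 to 51.7 RPKM (log2 fold change 0.71, adjusted p = 0.474 over all niche cells). Mef2c, a transcription factor of bone, muscle and B cells, measured 21.2 to 61.7 RPKM (median 36.1) against 2.60 to 69.8 RPKM, median 19.5 (log2 fold change 0.81, adjusted p = 0.134, called under 4 of 23 alternatives). Cd93, a surface lectin of endothelium and plasma cells, measured 18.8 to 73.1 RPKM (median 33.7), between endothelial cells at 129 to 268 RPKM and the other niche cells at no more than 5.83 RPKM (log2 fold change 1.55, adjusted p = 0.186, called under 6 of 23 alternatives). Dpp4, the peptidase CD26, was higher, at 1.60 to 11.3 RPKM (median 3.98) against 0 to 32.2 RPKM, median 0.0198 (log2 fold change 1.76, adjusted p = 0.00381). Nes, nestin, was the other higher gene of the mesenchymal list (log2 fold change 1.19, adjusted p = 0.0687, not called under 9 of 23 alternatives), a call lost without letter D, E, G or I (adjusted p up to 0.138). Bglap, osteocalcin, measured 0 to 40.9 RPKM (median 13.2) in myeloma cells and 54769, 29189, 35374 and 23958 RPKM in osteoprogenitors D, G, I and J (log2 fold change -11.76, adjusted p = 3.42e-09 against osteoprogenitors, not called with voom over all niche cells), and its near-identical neighbouring copies leave its reads uncertain.

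Beside Sparc, the 10 largest falls without overlap included S100, annexin and cytoskeletal genes. S100a10, the partner of annexin A2, measured 0.455 to 19.0 RPKM (median 1.61) against 1156 to 8197 RPKM, median 2184 (log2 fold change -9.73, adjusted p = 9.86e-18). Anxa2 itself measured 0.237 to 17.2 RPKM (median 0.460) against 268 to 1986 RPKM, median 839 (log2 fold change -8.77, adjusted p = 2.93e-16). Vim, vimentin, the intermediate filament of mesenchymal cells and also of many leukocytes, measured 0.403 to 4.21 RPKM (median 0.847) against 377 to 2821 RPKM, median 1034 (log2 fold change -8.83, adjusted p = 1.49e-18). The lowest niche library was above the highest myeloma library for each. Cd9, a tetraspanin, measured 0.888 to 9.29 RPKM (median 3.15) against 728 to 6673 RPKM, median 2725 (log2 fold change -9.25, adjusted p = 3.06e-18, not called with voom). The others were S100a6 (-9.25), S100a4 (-9.21), Anxa1 (-9.08), the secreted Igfbp7 (-8.83) and the chaperone clusterin, Clu (-8.83), as log2 fold changes, with adjusted p values of at most 2.03e-09. Of these 5, S100a6, S100a4, Anxa1 and Clu were not called with voom.

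Interferon-stimulated genes were lower in 38 of 57 tested and higher in 4, with a median log2 fold change of -1.97. Against endothelial cells alone the counts were 49 of 55 lower and 1 higher (median -3.57), with 22 lower and 7 higher of 48 for osteoprogenitors (median -1.13) and 20 and 7 of 48 for stromal progenitors (median -1.17). Over all genes 22.2% were lower and 26.4% higher against all niche cells, and 19.2% and 33.4% against endothelial cells. For osteoprogenitors these shares were 20.3% lower and 30.0% higher, and for stromal progenitors 20.6% and 30.8%. The difference between cell types was not tested. With the niche libraries of healthy mice in place of those of myeloma-bearing mice, 15 of 50 were lower and 7 higher (median -0.96), beside 21.4% lower and 26.5% higher over all genes. Ifitm3, a membrane protein that blocks viral entry, measured 0.433 to 124 RPKM (median 14.02) against 1040.2 to 15160.2 RPKM, median 2621 (log2 fold change -7.94, SE 0.73, adjusted p = 6.08e-10, not called with voom). Ifitm2 measured 1.497 to 62.2 RPKM (median 5.33) against 547 to 2439 RPKM, median 1419 (log2 fold change -7.41, adjusted p = 7.64e-15). Neither overlapped between the groups.

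Ifit1, which binds viral RNA, measured 257, 134, 113, 117 and 87.6 RPKM in endothelial libraries D, E, G, I and J, 1.31 to 78.1 RPKM in osteoprogenitors and 0.0608 to 56.3 RPKM in stromal progenitors, and 0 to 13.5 RPKM (median 1.01) in myeloma cells (log2 fold change -3.58, adjusted p = 3.95e-04, not called under 1 of 23 alternatives). Its neighbour Ifit3 measured 38.9, 433, 127, 218 and 55.5 RPKM in the same endothelial libraries and 0 to 11.7 RPKM (median 0.0224) in myeloma cells (log2 fold change -3.18, adjusted p = 0.0110, not called under 2 of 23 alternatives). Bone lining library E was the highest myeloma library for both. The regulator Irf7 was lower, at 0.0398 to 5.79 RPKM (median 0.915) against 0 to 292 RPKM, median 20.5 (log2 fold change -3.00, adjusted p = 0.00262, not called under 1 of 23 alternatives). Against the niche of healthy mice Ifit1, Ifit3 and Irf7 were not called (log2 fold change -0.50, -1.27 and -0.95, adjusted p = 0.615, 0.200 and 0.264). Ifi27l2a, a strongly induced mitochondrial protein and the named gene called here that turned to the other sign against healthy niche cells (log2 fold change 0.47, adjusted p = 0.751), measured 0.762 to 84.9 RPKM (median 38.5) against 37.6 to 1243 RPKM, median 419.9 (log2 fold change -3.56, adjusted p = 2.60e-05, not called under 1 of 23 alternatives). Isg15, the ubiquitin-like modifier, was low in both, at most 0.876 RPKM in myeloma and 11.9 RPKM in niche cells, and missed the fold threshold (log2 fold change -0.97, adjusted p = 0.0565, called under 8 of 19 alternatives).

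Promoters of Ifit1 and Ifit3 are shown because these neighbouring genes carry the interferon-stimulated response element and differ between tumour and endothelium. The element was searched as GAAANNGAA on both strands, matches are in capitals and overlapping matches run together. Sequences are from RefSeq GRCm38.p6, 5′ to 3′ on the plus strand, Ifit1 at chr19:34640639-34640888 and Ifit3 at chr19:34583279-34583528.
Ifit1: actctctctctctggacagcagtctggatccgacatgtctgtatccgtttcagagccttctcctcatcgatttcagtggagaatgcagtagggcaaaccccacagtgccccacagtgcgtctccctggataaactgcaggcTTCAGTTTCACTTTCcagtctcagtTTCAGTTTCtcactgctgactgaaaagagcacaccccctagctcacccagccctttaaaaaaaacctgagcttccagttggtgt
Ifit3: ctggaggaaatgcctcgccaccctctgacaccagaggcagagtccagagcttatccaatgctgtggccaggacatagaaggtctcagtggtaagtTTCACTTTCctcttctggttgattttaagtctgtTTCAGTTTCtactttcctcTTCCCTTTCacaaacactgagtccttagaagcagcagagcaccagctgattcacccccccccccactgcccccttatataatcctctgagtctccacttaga
Ifit1 held 3 matches, which start 109, 103 and 84 bases before the gene start, and Ifit3 held 3 at 155, 121 and 102 bases. The letters were found in 7.16% of 27025 promoters and in 21 of 42 promoters matched for tested members of the interferon list. Of the 21 genes with a match 14 were lower, 1 higher and 6 not called (median log2 fold change -1.97), and of the 21 without 15 were lower, 3 higher and 3 not called (median -2.51). A match is again a description of the letters.

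MHC class I and antigen processing genes, many of which interferons induce, were counted apart. Of 21 tested 9 were higher and 0 lower in myeloma cells (median log2 fold change 0.89), beside 26.4% and 22.2% over all genes. Against endothelial cells 4 were higher and 5 lower, beside 33.4% and 19.2% of all genes tested there. Against osteoprogenitors and stromal progenitors 13 and 13 were higher and 0 lower in each. All genes tested there were 30.0% higher and 20.3% lower for osteoprogenitors, and 30.8% and 20.6% for stromal progenitors. These counts were not tested against each other. The 4 genes of the interferon list that were higher were Psmb8, Psmb9, Psmb10 and the ubiquitin ligase Trim25, and the 3 immunoproteasome subunits are members of both lists. Psmb9 measured 172 to 409 RPKM (median 276) in myeloma cells, 299.9, 137, 190.2, 142 and 332 RPKM in endothelial libraries D, E, G, I and J, 0, 71.0, 3.20 and 26.6 RPKM in osteoprogenitors D, G, I and J and 0.817, 2.58, 30.3, 0.149 and 16.3 RPKM in stromal progenitors D, E, G, I and J (log2 fold change 3.59, adjusted p = 0.00159). Psmb8 and Psmb10 were higher as well (log2 fold change 2.98, adjusted p = 0.00197 and log2 fold change 1.82, adjusted p = 0.0529, not called under 6 of 23 alternatives), the latter named after its values were seen. Endothelial libraries D, G and J lay within the myeloma range of Psmb9, and every osteoprogenitor and stromal progenitor library was below it.

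H2-K1, a classical class I heavy chain, measured 1878 to 3066 RPKM (median 2112) against 172 to 2202 RPKM, median 593 (log2 fold change 1.65, adjusted p = 1.50e-04). H2-D1 measured 946 to 1995 RPKM (median 1066) against 328 to 1371 RPKM (median 609), below the fold threshold (log2 fold change 0.89, adjusted p = 0.00379, called under 4 of 23 alternatives). B2m, the light chain, measured 15647 to 41759.6 RPKM against 3880.0 to 55043 RPKM and was not called (log2 fold change 0.72, adjusted p = 0.110, called under 3 of 23 alternatives). Erap1, the peptide-trimming protease of the ER, measured 33.0 to 77.7 RPKM (median 55.1) against 0.135 to 50.7 RPKM, median 5.68 (log2 fold change 3.10, adjusted p = 2.25e-04). Of the peptide transporter genes Tap1 was higher (log2 fold change 1.48, adjusted p = 0.0894, not called under 10 of 23 alternatives) and Tap2 was not called (log2 fold change -0.66, adjusted p = 0.411). The calls of Tap1 and Psmb10 were lost on leaving out a letter, Tap1 without D, E, G or J (adjusted p up to 0.194) and Psmb10 without D or I (adjusted p up to 0.130). Tap1 was also not called without stromal progenitor library E (adjusted p = 0.136). Class I genes are near-identical copies in part, so their single levels are uncertain.

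Immediate-early genes, transcribed within minutes of a stimulus, were lower in 20 of 21 tested and higher in 0, with a median log2 fold change of -5.37, and 16 did not overlap. Fos, a component of AP-1, measured 177, 72.6, 53.5, 109 and 54.3 RPKM in bone lining myeloma libraries D, E, G, I and J, 0.937, 0.512, 1.98, 22.3 and 16.0 RPKM in the central marrow libraries and 977 to 2473 RPKM (median 1630.3) in niche cells (log2 fold change -6.26, SE 0.61, adjusted p = 2.14e-09, not called with voom). Egr1, a zinc finger factor of the same class, measured 0.144 to 1.92 RPKM (median 0.414) against 206 to 1131 RPKM, median 765 (log2 fold change -8.62, adjusted p = 1.47e-18). Ier3, a stress-response gene, measured 0.0679 to 1.94 RPKM (median 0.399) against 239 to 1089 RPKM, median 622 (log2 fold change -8.51, adjusted p = 5.31e-19). The niche libraries of all 3 cell types were high, and Fos showed the bone lining tumour libraries all above those of the central marrow.

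Jun measured 0 to 4.02 RPKM (median 0.352) against 17.4 to 122 RPKM, median 44.0 (log2 fold change -4.92, adjusted p = 8.93e-12). The smallest differences were those of Jund (log2 fold change -1.05, adjusted p = 0.0392, not called under 8 of 23 alternatives) and Btg2, an antiproliferative gene at 35.1 to 106 RPKM (median 78.6) and 10.1 to 237 RPKM (median 74.8) that was not called (log2 fold change -0.12, adjusted p = 0.815). The call of Jund was lost without letter E or J and without stromal progenitor library E (log2 fold change -0.96). Junb, Fosb, the heat shock gene Hspa1a and the flow-responsive factor Klf2 were named after their values were seen. Junb measured 1.91 to 21.9 RPKM (median 13.1) against 43.7 to 773 RPKM, median 281 (log2 fold change -4.39, adjusted p = 5.53e-10). Fosb measured 0.0294 to 28.3 RPKM (median 3.56) against 47.7 to 449 RPKM, median 207 (log2 fold change -5.20, adjusted p = 2.38e-08). Klf2 measured 0.0815 to 0.663 RPKM (median 0.210) against 96.2 to 612 RPKM, median 343 (log2 fold change -7.89, adjusted p = 1.81e-17). Hspa1a measured 0 to 1.65 RPKM (median 0.0780) against 21.7 to 177 RPKM, median 65.2 (log2 fold change -5.85, adjusted p = 8.75e-14). With bone lining myeloma cells only, which went through the same digestion as the niche cells, 17 immediate-early genes were lower (median -4.41). With central marrow cells only 19 were (median -6.07). Over all genes 1602 of 11363 and 1683 of 11471 were lower in the same order. The part of tissue handling in these levels was not tested.

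**Figure D4:**
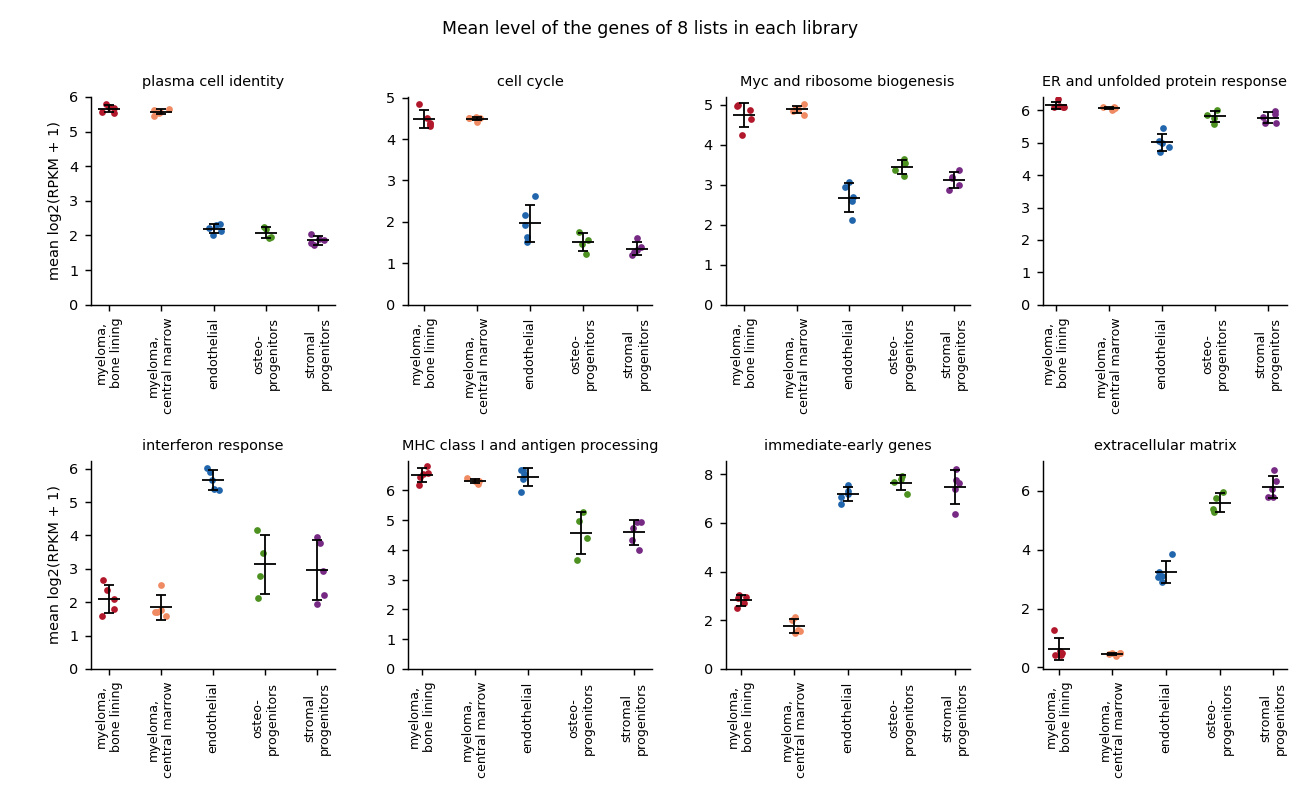
Mean log2(RPKM + 1) over the genes of 8 lists in each library (points), with the mean and SD of bone lining myeloma, central marrow myeloma, endothelial, osteoprogenitor and stromal progenitor libraries. Immediate-early genes lie at 1.47 to 3.02 in myeloma libraries and 6.37 to 8.21 in niche libraries, and cell cycle genes at 4.32 to 4.84 and 1.20 to 2.62.

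The mean level over a list was also taken in each library. Plasma cell identity genes averaged 5.45 to 5.80 on the log2(RPKM + 1) scale across the 10 myeloma libraries and 1.73 to 2.32 across the 14 niche libraries. Immediate-early genes averaged 2.50 to 3.02 in bone lining and 1.47 to 2.15 in central marrow myeloma cells, and 6.37 to 8.21 in niche cells, so both tumour groups were below every niche library and did not overlap each other. Interferon response genes averaged 1.59 to 2.66 in myeloma cells, 5.35 to 6.01 in endothelial cells, 2.13 to 4.15 in osteoprogenitors and 1.94 to 3.94 in stromal progenitors.

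Markers of other cells were counted beside the 48.6% called over all genes. Of 3 erythroid, 4 neutrophil, 8 macrophage and osteoclast, 1 T and NK cell and 2 megakaryocyte markers tested, 1 was higher and 5 were lower in myeloma cells. The higher gene was Cd68, a lysosomal glycoprotein that is no marker of macrophages alone, at 168 to 895 RPKM (median 523) against 0.237 to 149 RPKM, median 3.30 (log2 fold change 5.75, adjusted p = 1.79e-07). Of the other macrophage genes Csf1r was at 0 in 9 of 10 myeloma libraries, and C1qb (log2 fold change 0.86, adjusted p = 0.123, called under 1 of 17 alternatives) and Lyz2 (log2 fold change -0.61, adjusted p = 0.653) were not called. The lower genes were Ctsk, Cd14 (not called under 1 of 23 alternatives), Lcn2 (not called under 3 of 21 alternatives), Pf4 and Vcam1, which macrophages share with stroma. Ctsk, cathepsin K, was highest in stromal progenitors at 194 to 479 RPKM and osteoprogenitors at 120.2 to 235 RPKM (log2 fold change -4.79, adjusted p = 3.38e-04). Pf4, the platelet factor 4, measured 162, 236, 0, 62.7 and 193 RPKM in endothelial libraries D, E, G, I and J and at most 0.121 RPKM in myeloma cells (log2 fold change -2.07, adjusted p = 0.0819, not called under 4 of 17 alternatives). Lck, the T cell kinase, was present in endothelial libraries D, G and I at 39.8, 29.8 and 89.8 RPKM and not called (log2 fold change -1.30, adjusted p = 0.136, called under 4 of 21 alternatives). The summed macrophage and osteoclast markers were 172 to 921 RPKM in myeloma and 154 to 807 RPKM in niche cells. Erythroid markers were 0 to 32.3 and 0 to 99.8 RPKM in the same order, and megakaryocyte markers 0.140 to 4.37 and 0 to 236 RPKM. Alas2, the first enzyme of haem synthesis in red cells, was at 0 in 4 of 10 myeloma libraries and just missed the fold threshold (log2 fold change 0.99, adjusted p = 0.0987, called under 9 of 17 alternatives).

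Xist, the RNA that coats the inactive X chromosome, measured 0.0119 to 1.13 RPKM (median 0.0521) in myeloma cells and 8.27 to 115 RPKM (median 24.4) in niche cells, without overlap (log2 fold change -4.80, adjusted p = 2.79e-10). The next 3 abundant genes were chosen for a log2 fold change near 0, so their values are a description. Shfm1, a proteasome subunit, measured 1061 to 2075 RPKM (median 1393) against 777 to 2821 RPKM, median 1419 (log2 fold change -0.10, 95% interval -0.48 to 0.28, adjusted p = 0.674). Nedd8, the ubiquitin-like modifier, measured 689 to 1494 RPKM (median 832) against 594 to 2121 RPKM, median 893 (log2 fold change -0.06, 95% interval -0.44 to 0.32, adjusted p = 0.808). Ndufa7, of respiratory complex I, measured 638 to 1570.5 RPKM (median 1043) against 725 to 2339 RPKM, median 1192 (log2 fold change -0.22, 95% interval -0.62 to 0.17, adjusted p = 0.354). All 3 intervals lay within 1 of no change, and the libraries overlapped for each. With scaling to total reads the log2 fold changes were 0.60 for Shfm1, 0.64 for Nedd8 and 0.48 for Ndufa7, with limma adjusted p values of 0.00799, 0.00735 and 0.0261.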

How the data were processed

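RNA-Seq libraries of 100 sorted cells were prepared by SmartSeq2 and sequenced as single-end reads. The authors aligned reads to GRCm38 with STAR (version 2.4.0), counted them with featureCounts from Subread (version 1.4.5-p1), kept genes above a minimum level, and deposited RPKM computed with edgeR. featureCounts ran with default parameters, which ignore strand and leave out reads that map to several places. Whole reads could be recovered from the RPKM steps for all 13260 genes (tolerance 0.001). Here, limma (version 3.58.1, R 4.3.3) with a trend was fitted to log2(RPKM + 1) of 10 myeloma and 14 niche libraries, or of the libraries of 1 niche cell type, restricted to genes that exceeded 1 RPKM in 4 or more of them. A gene was called where its Benjamini-Hochberg adjusted p was under 0.1 and its log2 fold change was beyond 1 in either direction. The fit was tested on simulated data. Members and gene lists were chosen with earlier results of these data known. Named genes were key members of the lists, the 10 largest rises and falls without overlap, the 2 highest and 2 lowest members of each list, and 3 abundant genes that were not called and lay within 0.25 of 0 in log2 fold change. Genes named after their values were seen are marked. Of 1105 list members 993 were in the table, and Tnfrsf17, Pax5, Ms4a1, Cd3e and Nkg7 were not analysed here. Promoters were taken from RefSeq GRCm38.p6. Alternatives covered pseudocount, filters, scaling, weights, voom or a limma trend on recovered reads, a replicate block, leaving out letters or sites, and healthy niche libraries. Other steps used pandas 2.3.3, numpy 2.4.6, scipy 1.17.1 and matplotlib 3.10.9 under Python 3.11.15.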

Additional observations from a re-analysis of the deposited data

Results flagged for a closer look

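In 136 groups of libraries, formed by list or marker and cell type, 12 had a library whose gap to the next, relative to the range of the group, was beyond the critical value of Dixon's test. Chance gives about 1 in 20. Values are mean levels on log2(RPKM + 1). Stromal progenitor library E was highest for pan-leukocyte genes (2.11, against 1.13 to 1.31 in the others) and for Ptprc (2.56, against 0 to 0.0726 in the others). Among the 10 myeloma libraries, bone lining library J was highest for mesenchymal stromal genes (0.989, against 0.381 to 0.614 in the others) and extracellular matrix genes (1.28, against 0.375 to 0.546 in the others), and lowest for Myc and ribosome biogenesis genes (4.25, against 4.64 to 5.01 in the others). Bone lining library G was highest for cell cycle genes (4.84, against 4.32 to 4.53 in the others) and for endoplasmic reticulum genes (6.34, against 6.02 to 6.12 in the others). Osteoprogenitor library G was highest for mesenchymal stromal genes (4.13, against 3.60 to 3.61 in the others). Endothelial library J was highest for neutrophil markers (1.36, against 0 to 0.111 in the others). Markers of T and NK cells, here the single gene Lck, were highest in central marrow library J (1.89, against 0 to 0.217 in the others), osteoprogenitor library I (3.46, against 0 to 0 in the others) and stromal progenitor library I (0.0495, against 0 to 0 in the others).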

How the results depend on the processing

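Of the genes named here, 198 were tested in the comparison with all niche cells, and 112 of them had the same direction and call under each of the 23 alternatives in which they passed the filter. Over all named genes and alternatives, 4207 of 4478 values had the same direction and call, 153 lost the call, 85 gained it and 33 changed sign. The sign changes were of genes not called, except Ifi27l2a. As log2 fold changes, with quantile normalisation they were -0.21 for Bcl2l11, 0.10 for Btg2, 0.13 for Nedd8 and 0.11 for Shfm1. With the niche of healthy mice they were -0.62 for Bcl2l11, 0.47 for Ifi27l2a, -0.0790 for Igf1r, 0.63 for Lyz2 and -0.59 for Myc. With scaling to total reads they were 0.57 for Btg2, 0.0498 for Dnajc3, 0.43 for Hspa5, 0.23 for Lamc1, 0.49 for Ldha, 0.48 for Ndufa7, 0.64 for Nedd8, 0.0261 for P4ha1 and 0.60 for Shfm1. With voom and limma on recovered reads they were 0.0445 for Btg2 and 0.63 for Tap2. With central marrow myeloma cells only it was 0.0827 for Btg2. With bone lining myeloma cells only they were 0.0232 for Ldha, 0.52 for Lyz2 and -0.35 for Myc. With array weights it was 0.00652 for Nedd8. With limma on log2 CPM it was 0.20 for Tap2. Leaving out each letter in turn gave -0.34 to 0.0401 for Btg2, -0.48 to 0.0183 for Ldha, -1.45 to 0.47 for Lyz2, -0.31 to 0.0632 for Ndufa7, -0.16 to 0.0616 for Nedd8 and -0.24 to 0.0845 for Shfm1. The cause of these changes was not tested.

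The number of genes called fell to 3587 with bone lining myeloma cells only, of which 1985 were higher and 1602 lower, and the lower ones to 1683 with central marrow cells only and to 1666 with the mean of both myeloma libraries of each letter. These alternatives hold fewer myeloma libraries. Requiring more than 1 RPKM in at least 10 libraries tested fewer genes, with 1631 lower, and 3523 calls against endothelial cells, 3423 against osteoprogenitors and 3442 against stromal progenitors. Scaling to total reads raised the higher genes to 4840. Leaving out each letter in turn gave 5166 to 5401 calls, and leaving out stromal progenitor library E, chosen after seeing the data, 5775. On recovered reads 7021 were called with voom and 6681 with limma on log2 CPM (prior of 2 reads, chosen after seeing the data). Voom lost 19 named calls, given as adjusted p: 0.948 for Igj, 0.958 for Spp1, 0.998 for Sparc, 0.334 for Fos, 0.910 for Clu, 0.774 for Cd9, 0.935 for Fn1, 0.480 for Ifitm3, 0.317 for S100a6, 0.246 for Anxa1, 0.758 for Col1a2, 0.244 for Bgn, 0.599 for Col1a1, 0.126 for S100a4, 0.152 for Ly6a, 0.398 for Col3a1, 0.207 for Bglap, 0.774 for Sec24d and 0.583 for Bmpr1a. Limma on log2 CPM called 17 of the 19. With the letter as a replicate block 5677 genes were called. Labels do not say that a letter is a mouse. The check set a limit of 0.1 on the correlation of deviations and cannot decide whether same-lettered libraries are paired. Of 28 same-lettered pairs of a myeloma and a niche library 15 were above 0 and 1 above 0.1 (range -0.04 to 0.12). Of the 5 pairs of bone lining and central marrow libraries 3 were above 0 and 0 above 0.1 (-0.04 to 0.06). Of 13 same-lettered pairs of niche libraries of different cell types 0 were above 0.1, although all 13 were above 0 (0.0024 to 0.088). Among such pairs with different letters, 18 of 52 were above 0 (-0.08 to 0.04). Depth limits genes near 1 RPKM, where a count of 0 allows up to 3 reads, and these limits cover counting error only since reads carry no molecular identifiers.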

Other observations

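Igj, the joining chain of antibodies, was also counted in niche libraries. It measured 1.86, 0.872, 6.46, 10.4 and 0 RPKM in endothelial libraries D, E, G, I and J, 3.47, 0.103, 4.49 and 0.0388 RPKM in osteoprogenitors D, G, I and J and 2.89, 2.29, 0.398, 6.81 and 0.0537 RPKM in stromal progenitors D, E, G, I and J. In the 14 niche libraries of healthy mice, it measured 0 to 6.55 RPKM (median 0.802). Rhox5 measured 0 to 39.5 RPKM (median 6.89) in the niche of myeloma-bearing mice and 0 to 8.71 RPKM (median 3.32) in that of healthy mice, and Pgam2 0 to 0.678 RPKM (median 0.0815) and 0 to 0.461 RPKM (median 0.0942). Stromal progenitor library E, with the neutrophil markers above, also held 1095 RPKM of Camp and 175 RPKM of Ngp, both granule proteins of neutrophils, against at most 11.3 and 20.1 RPKM in the other 13 niche libraries of myeloma-bearing mice. Among healthy mice, stromal progenitor library L held a like sum of neutrophil markers, 7374 RPKM. No hypothesis was tested on these values.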
